A study of Mus musculus with 4 samples.

Results

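The smooth muscle contractile genes described here were Acta2, Tagln, Myh11, Actg2, Des, Cnn1, Myl9, Mylk, Lmod1 and Smtn. They were chosen by symbol, and every gene probe whose accession maps to one of these symbols was taken. This gave 14 of the 41174 probes on the array, and all 10 genes were among the 20825 genes and transcripts tested. Of the 10 genes, 7 had 1 probe, 2 had 2 probes and Acta2 had 3. All 14 probes passed the filter on dim probes, 12 were well above background in both channels on all 4 arrays, and none was saturated.

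The samples were colonic mucosa of C57BL/6 mice, sheared off with a glass slide, taken at postnatal day 90 (P90, young adult) or postnatal day 30 (P30, juvenile); the labels name no genotype, treatment or sex. A P90 RNA and a P30 RNA were hybridised together to each of 4 two-colour arrays, which bear the letters a, b, e and k. Array e had the dyes exchanged: there P90 carried Cy5, and on the other 3 it carried Cy3. The labels call the comparisons independent but leave unsaid whether animals were pooled or used repeatedly, so p-values measure the spread between these 4 pairs, which may be technical in part. The comparison asks how the mucosal transcriptome of adult mice differs from that of juveniles. With 4 pairs, precision is limited throughout by their number.

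Smooth muscle shortens when myosin heads pull on actin filaments. A rise in calcium activates myosin light chain kinase, which phosphorylates the regulatory light chain of myosin. Much of the contractile programme is transcribed under serum response factor, which binds a short promoter element called the CArG box together with the coactivators myocardin and the myocardin-related factors. In the colon these genes are expressed by the muscularis mucosae, which lies at the base of the mucosa, by the muscle layers of the wall, by vessel walls and, for some of them, by subepithelial myofibroblasts. In bulk tissue, fewer cells of a type and less RNA per cell cannot be told apart.

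Promoters of 7 of the 10 genes were in the RefSeq table (GRCm38.p6), which holds 250 bases before and 50 after each start; Tagln, Myh11 and Actg2 had no entry. The CArG box was searched on both strands, which a single scan covers because the box reads the same in form on each. An exact box was found in 1 of the 7, Myl9, beside 1.63% of all 32851 promoters of that length. A box with 1 base off in its core was found in 2 of the 7, Acta2 and Myl9, beside 8.5% of all promoters. These are matches of letters only. The 250 bases before the start of both genes are shown because Acta2 and Myl9 are the 2 members with such matches; capitals mark them.
Acta2 promoter, chr19:34255374-34255623, minus strand: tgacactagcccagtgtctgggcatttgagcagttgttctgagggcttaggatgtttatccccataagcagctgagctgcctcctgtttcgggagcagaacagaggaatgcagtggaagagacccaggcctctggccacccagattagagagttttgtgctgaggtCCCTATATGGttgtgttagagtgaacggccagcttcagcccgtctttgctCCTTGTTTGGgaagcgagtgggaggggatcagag
Myl9 promoter, chr2:156775214-156775463, plus strand: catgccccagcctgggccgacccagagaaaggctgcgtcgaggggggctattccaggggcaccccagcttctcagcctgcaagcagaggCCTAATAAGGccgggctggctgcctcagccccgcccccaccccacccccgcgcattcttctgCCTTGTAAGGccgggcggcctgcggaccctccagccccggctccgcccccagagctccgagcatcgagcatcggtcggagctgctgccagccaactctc
In Myl9 the exact box CCTAATAAGG lay 161 to 152 bases before the start and the near match CCTTGTAAGG 99 to 90 bases before it. In Acta2 the near matches CCCTATATGG and CCTTGTTTGG lay 84 to 75 and 34 to 25 bases before the start. No match in the windows of Des, Cnn1, Mylk, Lmod1 and Smtn says only that these letters are not there.

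No contractile gene passed the test for a difference between the ages, and their ratios varied widely between arrays. None passed the limma test with Benjamini-Hochberg adjustment over all genes, where 0% of the 20825 genes passed (smallest adjusted p of all genes 0.618; smallest among the 10 genes 0.628, for Des). At an unadjusted p below 0.05, 7.88% of all genes (1641) were found, 2.59% higher and 5.29% lower at P90, and 1 of the 10 genes, Des, which was higher. At the same threshold 8.05% of all kept probes and 1 of the 14 probes were found, and none passed after adjustment over probes. None of the 10 had the same direction on all 4 arrays, beside 14.1% of all genes. With the sign of array b turned, for the reason given below, 3 of the 10 did (Myh11 and Mylk lower, Smtn higher at P90), beside 33.4% of all genes. None had P90 levels that lay wholly above or below its P30 levels, beside 2.66% of all genes. Of the means over the 4 arrays, 5 lay above 0 and 5 below, with a median log2 P90/P30 of 0.023 beside -0.019 over all genes. With each array centred on its median in place of loess, 1 of the 10 means was above 0. That scaling also moved the median of all genes to -0.21, and 3 of the 10 genes lay above that value, against 6 of 10 lying above the all-gene median with loess.

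The split was between arrays. The median log2 P90/P30 of the 10 genes was 0.25 (array a), 0.84 (b), 0.24 (e) and -0.82 (k). The matching medians of all genes were -0.042, -0.017, -0.0041 and -0.030. On array k, 1 of the 10 genes, Smtn, was above 0, against 6 on a, 7 on b and 7 on e. Array k held the lowest of the 4 ratios for 6 of the 10 genes, as it did for 17.9% of all genes. The median on b stayed above 0 and that on k below 0 under all 5 other treatments of background and scaling for which array medians were computed; the size on k was -1.52 with processed signals, -1.51 with the deposited log ratio and -1.38 with median centring. With median centring the median on a was -0.64, where the median of all genes was -0.55.

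Across all genes the ratios of array b ran against those of the other arrays, although its labelled dyes are those of a and k: Pearson r was -0.31 with a, -0.27 with e and -0.19 with k. Arrays a, e and k correlated positively (r = 0.60 for a and e, 0.44 for a and k, 0.31 for e and k). Genes are not independent replicates, and these values have no p. Because each array's dyes are given in its labels, the labelled direction was kept; with the sign of array b turned, the median of the 10 genes was -0.20 and 4 of the 10 means lay above 0. Well above background were 55.6% to 69.3% of gene spots in the P90 channels, fewest on arrays a and k, and 64.6% to 71.0% in the P30 channels. The cytokeratin genes Krt8 and Krt18, which mark epithelium, were saturated at both ages on all 4 arrays.

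**Figure D1:**
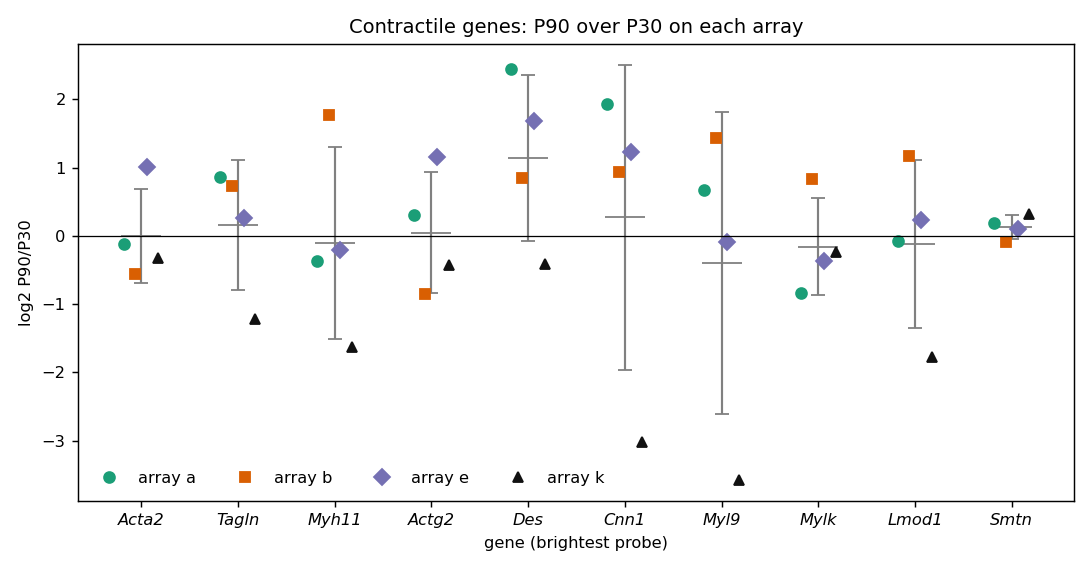
Log2 P90/P30 (vertical axis, log2 scale) of the probe that stands for each of the 10 contractile genes, with 1 point per array and the mean with ±1 SD over the 4 arrays in grey. Array k, the black triangle, lies below 0 for every gene but Smtn, and the points of Cnn1 and Myl9 spread furthest.

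Of the myosin and its regulators, Myh11, the smooth muscle myosin heavy chain, had log2 P90/P30 values of -0.37, 1.77, -0.21 and -1.63 on arrays a, b, e and k. Its mean was -0.11 ± 1.41 (SD, n = 4; limma adjusted p = 0.979), and arrays b and k lay on opposite sides of 0. The normalized log2 signals of its P90 RNA were 10.09, 9.64, 9.21 and 6.95 on arrays a, b, e and k. Those of its P30 RNA were 10.46, 7.86, 9.42 and 8.58. The P90 RNA of array k was the lowest of all 8 RNAs, the P30 RNA of array b came next, and the ages overlapped.

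Myl9, the regulatory light chain that the kinase phosphorylates, had log2 P90/P30 values of 0.67, 1.42, -0.09 and -3.57 on arrays a, b, e and k. The mean was -0.39 ± 2.21 (SD, n = 4; limma adjusted p = 0.940), with a 95% interval from -2.39 to 1.61. Its P90 signals on the log2 scale were 13.12, 12.09, 13.45 and 8.81, a 25-fold range between the highest and the lowest RNA. Its P30 signals were 12.45, 10.67, 13.54 and 12.38, and the P90 RNA of array k lay below every one of them. Without array k the mean was 0.67.

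Mylk, the kinase itself, is transcribed from a gene that also encodes a longer non-muscle form. Its values were -0.84, 0.83, -0.37 and -0.24 in the same order of arrays, with a mean of -0.16 ± 0.71 (SD, n = 4; limma adjusted p = 0.927). Its second probe gave -0.69, 0.88, -0.52 and -0.37, the same signs on every array. The P90 signals of the first probe spanned 11.42 to 12.55 on the log2 scale and the P30 signals 11.66 to 12.51. Whether Mylk and Myl9 differ in their ratio was not tested.

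Among the proteins that bind and regulate the actin filament, Tagln, the actin-bundling protein SM22, had log2 P90/P30 values of 0.86, 0.73, 0.26 and -1.22 on arrays a, b, e and k. The mean was 0.16 ± 0.95 (SD, n = 4; limma adjusted p = 0.947). Its second probe gave 0.97, 1.16, 0.02 and -1.58, so both probes were above 0 on 3 arrays and below on k. The P90 signals of the first probe were 13.76, 12.23, 13.63 and 11.20, and its P30 signals 12.90, 11.50, 13.37 and 12.42.

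Cnn1, calponin, which inhibits the actin-activated ATPase of myosin, showed the widest spread among the 10 genes. Its ratios were 1.94, 0.94, 1.23 and -3.01 in the same order, with a mean of 0.27 ± 2.23 (SD, n = 4; limma adjusted p = 0.962) and a 95% interval from -1.75 to 2.29. The P90 signals were 14.04, 11.31, 13.66 and 8.56, a 44.7-fold range. The P30 signals were 12.11, 10.37, 12.43 and 11.57, a 4.17-fold range.

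Lmod1, leiomodin, which nucleates actin filaments, had ratios of -0.08, 1.17, 0.23 and -1.78 on arrays a, b, e and k (mean -0.11 ± 1.23, SD, n = 4; limma adjusted p = 0.975). As for Myh11, array b was highest and array k lowest. Smtn, smoothelin, a structural protein of contractile smooth muscle, stood apart by its narrow spread, with ratios of 0.19, -0.09, 0.09 and 0.32 (mean 0.13 ± 0.17, SD, n = 4; limma adjusted p = 0.834). Its 95% interval ran from -0.19 to 0.45, and its 8 signals spanned 8.33 to 8.98 on the log2 scale. The median SD of the ratio was 1.09 over the 10 genes and 0.35 over all genes.

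Des, desmin, the intermediate filament protein of muscle, had the highest mean of the 10 genes. Its ratios were 2.44, 0.85, 1.68 and -0.41 on arrays a, b, e and k, so 3 arrays were above 0 and k below. The mean was 1.14 ± 1.22 (SD, n = 4), with a 95% interval from 0.010 to 2.27. It did not pass after adjustment over all genes (limma unadjusted p = 0.0485, adjusted p = 0.628). Its P90 signals were 10.07, 7.57, 9.02 and 6.41 and its P30 signals 7.63, 6.72, 7.35 and 6.82, and its P90 RNA was well above background on 3 arrays. Des is printed as 10 spots on each array, of which 7 to 10 were used; their SD within an array, which is technical, was at most 0.096. The direction of Des was the same under all 17 alternatives tried, with means between 0.70 and 1.66, but its unadjusted p was below 0.05 in 4 of them. Without array k it was 0.0052, and 3 of the 10 genes were then below 0.05 (Des, Cnn1 and Tagln), all with an adjusted p of 0.985.

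**Figure D2:**
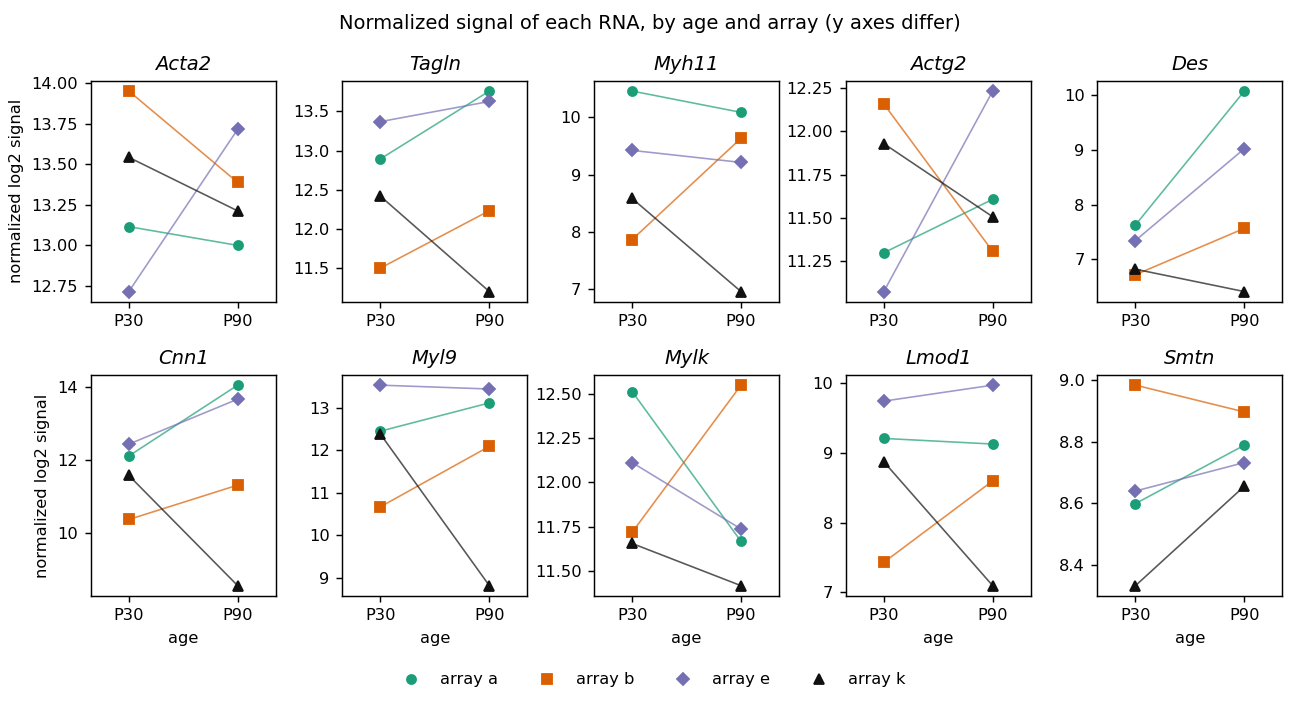
Normalized signal (vertical axis, log2 scale, different for each gene) of the P30 and the P90 RNA of each array, joined by a line, for the 10 contractile genes. The P90 RNA of array k is the lowest P90 point in 8 of the 10 panels, and lines of different arrays cross in every panel.

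The signals of single RNAs showed where the spread lay. The P90 RNA of array k had the lowest P90 signal for 8 of the 10 genes, all but Acta2 and Actg2, as it did for 24.8% of all genes. The P30 RNA of array b had the lowest P30 signal for 6 of the 10, namely Tagln, Myh11, Des, Cnn1, Myl9 and Lmod1, as it did for 23.6% of all genes. If the ages of array b are exchanged, its RNA was the lowest of the P30 RNAs for 4 of the 10 (26.6% of all genes), and the P90 RNA of array k was the lowest of the P90 RNAs for 9 of the 10 (25.2%). With the labelled ages, the P90 RNA of array a or e had the highest P90 signal for 8 of the 10, as for 42.6% of all genes. The median range between the highest and lowest P90 RNA was 2.72 on the log2 scale for the 10 genes and 0.68 for all genes. Between P30 RNAs it was 1.55 and 0.62. The P90 SD exceeded the P30 SD in 7 of the 10 genes and in 57.8% of all genes. Summed over the 10 genes on the linear scale, the signal of the P90 RNAs was 57400, 32816, 61002 and 19068 on arrays a, b, e and k. That of the P30 RNAs ran from 30647 on b to 43428 on e. These signals are open to dye bias, since array e alone had the dyes exchanged.

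Actg2 and the brightest probe of Acta2 gave profiles of ratios unlike those of the other Acta2 probes. Acta2, the vascular and myofibroblast form of smooth muscle actin, is measured by 3 probes. Its brightest, which stands for the gene, gave log2 P90/P30 values of -0.12, -0.56, 1.0 and -0.33 on arrays a, b, e and k (mean -0.0022 ± 0.69, SD, n = 4; limma adjusted p = 0.999). Actg2, the enteric form, gave 0.31, -0.85, 1.16 and -0.42 (mean 0.048 ± 0.88, SD, n = 4; limma adjusted p = 0.988). Both were lowest on array b and highest on e, and their root mean square difference over the 4 arrays was 0.27. Only 168 of the 27040 probes measured on all arrays lay nearer to that Acta2 probe.

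The other probes of Acta2 ran differently. The probe printed as 10 spots gave -0.32, 0.99, -0.07 and -2.71 on arrays a, b, e and k (mean -0.53 ± 1.56, SD, n = 4; probe-level limma adjusted p = 0.843). The SD over its spots within an array was between 0.031 and 0.079. The dimmest probe gave 0.95, 1.19, -0.40 and -1.22 (mean 0.13 ± 1.14; adjusted p = 0.963), and its P90 RNA was well above background on 3 arrays. Both were above 0 on array b and below 0 on k. The 10-spot probe differed from the brightest by a root mean square of 1.52. That gap was larger than the gap between the 2 brightest probes in 99.3% of the 4629 genes with several kept probes, where the median was 0.36.

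The 10-spot probe of Acta2 lay nearest, among the contractile genes, to Lmod1 (root mean square difference 0.51), Myh11 (0.67) and Myl9 (0.69). Of all 27040 probes, 9, 51 and 57 lay nearer to it than these. The dimmest probe lay nearest of all probes to the second probe of Tagln (0.28). The actin genes encode near-identical proteins, and cross-binding between their probes was not tested. Probe sequences were not used here, and the separate values of Acta2 and Actg2 are uncertain for that reason. With the 10-spot probe in place of the brightest, an alternative chosen after seeing the data, Acta2 stood at -0.53 and was again not called.

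**Figure D3:**
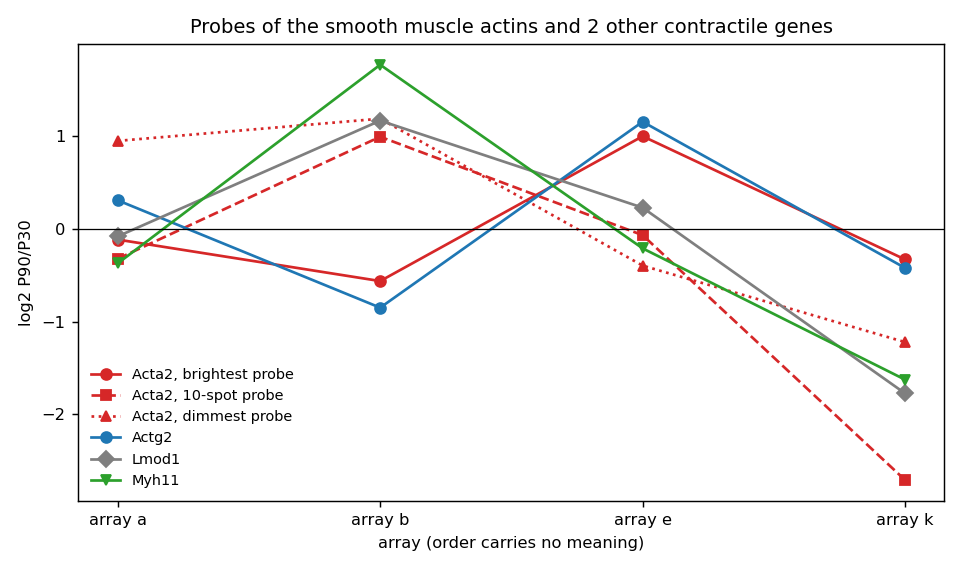
Log2 P90/P30 (vertical axis, log2 scale) on the 4 arrays for the 3 probes of Acta2, for Actg2 and, for comparison, Lmod1 and Myh11. The brightest Acta2 probe and Actg2 are low on array b and high on e, whereas the other Acta2 probes, Lmod1 and Myh11 are high on b and low on k.

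Other genes of the contractile apparatus were less spread. Of 25 partners listed, 23 were tested, none passed the adjusted limma test, and the 21 with a ratio had 10 means above 0 and 11 below. Their medians on arrays a, b, e and k were -0.045, 0.28, 0.056 and -0.30. Of the 4 brightest partners, the essential light chain gene Myl6 was saturated in both channels on all arrays and Myl12b in the P30 channel on 3, so neither has a ratio. Fhl1, a LIM-domain protein, stood at 0.25 ± 0.54 (SD, n = 4), with 1 P90 spot saturated, and the broadly expressed transgelin Tagln2 at -0.014 ± 0.28.

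A few partners, chosen after their values were seen, resembled the contractile genes on array k. Tpm2, a tropomyosin, had ratios of 0.94, 0.80, 0.25 and -2.57 on arrays a, b, e and k. Flna, the actin cross-linker filamin A, had -0.54, 1.61, -0.21 and -1.59. Pdlim3 had -0.05, 1.54, -0.85 and -2.42. Tpm2, Flna and Pdlim3 have 2, 3 and 2 kept probes. These values are from the brightest probe of each, and the other probes were not compared. On array k, 4 of the 21 partners with a ratio and 5 of the 10 contractile genes lay below -1.

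Genes that control transcription of the contractile programme were tested in 11 of 15 cases, with none called. The 10 with a ratio had 5 means above 0 and 5 below. Srf, serum response factor, stood at 0.049 ± 0.43 (SD, n = 4), with 0.37, -0.16, 0.44 and -0.45 on arrays a, b, e and k. Mrtfa, its myocardin-related coactivator, was above 0 on all 4 arrays, with 0.62, 0.47, 0.25 and 0.37 (mean 0.43 ± 0.16; limma unadjusted p = 0.016, adjusted p = 0.618). Its second probe gave 0.16, -0.12, 0.42 and 0.27. Gata6 stood at -0.62 ± 0.68, with other probes at 0.0019 and 0.16, and Klf4, a repressor of the programme that epithelium also expresses, was saturated at P30 on all arrays.

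Genes of excitation and signalling were tested in 12 of 20 cases, with none called, 3 means above 0 and 9 below. Of those tested, 11 were above 0 on array b, against 2 on a, 4 on e and 3 on k. Itpr1, the calcium release channel, stood at -0.37 ± 0.49, the calcium pump gene Atp2a2 at -0.15 ± 0.58 and the GTPase gene Rhoa at 0.32 ± 0.30 (SD, n = 4). Other probes stood at -0.35 for Itpr1, at -0.35 and 0.20 for Atp2a2 and at 0.057 for Rhoa. The muscarinic receptors Chrm2 and Chrm3, Ryr2, Pln and Kcnmb1 had probes that did not pass the filter on dim signals.

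**Figure D4:**
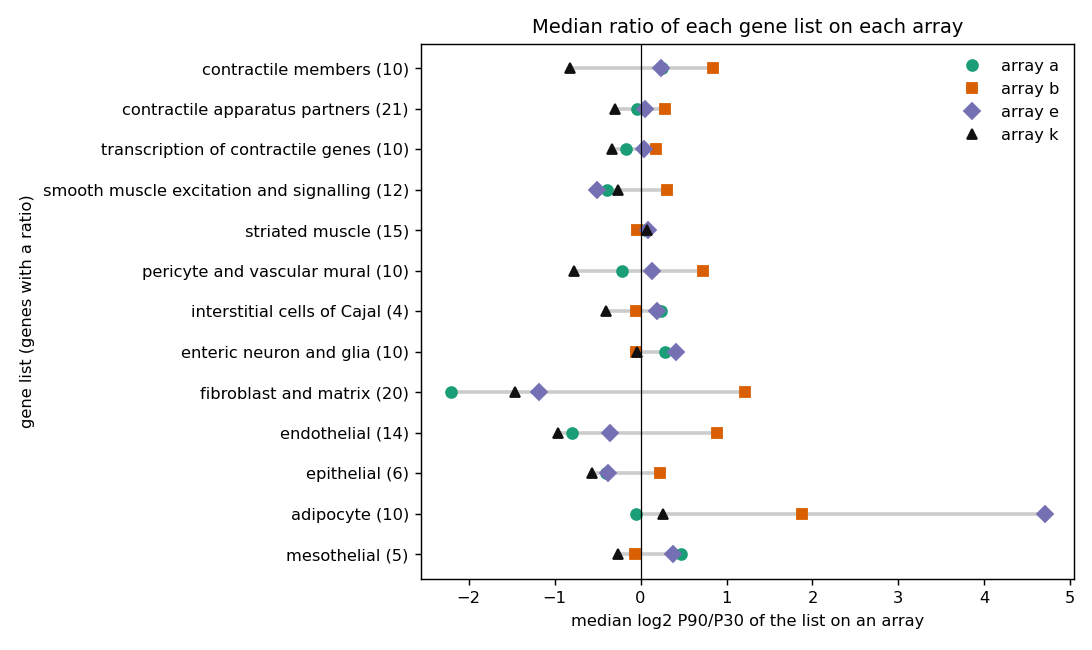
Median log2 P90/P30 (horizontal axis, log2 scale) of each gene list on each of the 4 arrays, with the number of genes that have a ratio in parentheses and a grey bar from the lowest to the highest array. The contractile genes, their partners and the transcription, pericyte, endothelial and epithelial lists all have array k lowest and b highest, the fibroblast list is below 0 on a, e and k, and the adipocyte list reaches 4.70 on e.

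Markers of other cells that a mucosal scrape can hold also differed between arrays, and none of them was called. Of 10 pericyte and vascular mural genes, all 10 were above 0 on array b and 1 on k, with medians of -0.21, 0.72, 0.13 and -0.78 on a, b, e and k. Pdgfrb stood at 0.024 ± 0.54 (SD, n = 4). Their summed linear signal ran from 3999 to 8203 at P90. At P30 it was 30760 on array k and between 2712 and 7440 on the other arrays. The P90 sum on array k was 4012. Anpep, which epithelium also expresses, had a ratio of -4.07 on array k, the lowest of the 10. Kcnj8, named after its value was seen, was next lowest there at -1.85. The part of Anpep in the P30 sum of 30760 was not tested. The median of the contractile genes minus that of the pericyte and mural genes was 0.46, 0.11, 0.11 and -0.040 in the same order. The part of mural cells in the contractile values was not tested.

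Fibroblast and matrix genes had medians of -2.20, 1.22, -1.19 and -1.46 on arrays a, b, e and k, with 19 of 20 above 0 on b and 1 of 20 on k. Col3a1, a fibrillar collagen, was at -4.41, 1.37, -2.36 and -4.41, and its second probe at -0.17, -0.086, -0.094 and -0.38. Gsn, gelsolin, was at 0.36 ± 0.49 (SD, n = 4), with spots saturated on 2 arrays in each channel. Its ratio on array b, 0.33, was also that of the saturated Krt8 and Krt18 there. The mean and SD of Gsn thus include an unreliable value. On arrays a and e, 2 and 3 of the 20 lay above 0, and the list medians were below 0 where those of the contractile genes were above 0. The summed fibroblast signal ran from 43662 to 114597 at P90 and from 73870 to 156501 at P30. Endothelial genes had medians of -0.80, 0.89, -0.36 and -0.96, with all 14 above 0 on b and none on a or e; Plvap and Robo4 stood at -0.58 ± 1.43 and -0.48 ± 1.32. Their summed signal ran from 2730 to 10461 at P90 and from 3902 to 15906 at P30.

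Adipocyte genes had medians of -0.048, 1.88, 4.70 and 0.26, and a summed signal of 204250 in the P90 RNA of array e against 13440 to 28881 in the other P90 RNAs and 13650 to 28478 at P30. Of the 10 tested, 8 means lay above 0 and 2 below, and 5, 10, 9 and 6 genes were above 0 on arrays a, b, e and k. Of the brightest adipocyte genes, Cidec was at 0.77 ± 1.74 and Pparg, which epithelium also expresses, at -0.63 ± 0.87 (SD, n = 4). Cfd, named after its values were seen, was above 0 on all 4 arrays, at 1.77, 3.53, 6.87 and 1.73. Its limma unadjusted p was 0.0083 and its adjusted p 0.618. Array e is also where Acta2 by its brightest probe and Actg2 were highest; the part of admixed fat in these values was not tested. Of 16 epithelial genes, 10 were saturated in a channel on 3 or more arrays and have no ratio. The other 6 had medians of -0.41, 0.23, -0.37 and -0.57. The summed signal of all 16 is capped by saturation; it ran from 748469 to 1032490 at P90 and from 679679 to 854012 at P30.

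Other cells of the muscle wall were represented unevenly. Of 20 enteric neuron and glia genes, 10 were tested, and Elavl3, Snap25, Ret, Nos1, Vip, Gfap and Gap43 were among those whose probes did not pass the filter. The summed signal of the 10 ran from 1470 to 2700 at P90 and from 1235 to 2132 at P30. Tubb3, neuronal tubulin, had ratios of 0.32, -1.0, 1.36 and -0.69 on arrays a, b, e and k, in the order of Actg2. Erbb3, which epithelium also expresses, stood at 0.42 ± 0.30 (SD, n = 4), with other probes at 0.21, 0.16 and 0.10. Of 6 genes of interstitial cells of Cajal, 4 were tested, and Kit had no named probe. Thbs4 stood at 0.46 ± 0.98, with its second probe at 0.38, and Ano1 at 0.086 ± 0.45. The summed signal of the 4 ran from 13523 to 54567 at P90 and from 12236 to 22052 at P30. Thbs4 was the brightest of them, with a mean log2 intensity of 14.1 beside 11.0 for Ano1, the next. Of 8 mesothelial genes, 5 were tested, with Msln at 1.66, -0.070, 1.01 and -1.08 and Krt14 at 0.014 ± 0.67, and a summed signal of 647 to 1198 at P90 and 701 to 1088 at P30. Of 20 striated muscle genes, 15 were tested, with array medians between -0.046 and 0.091; Actc1 stood at -0.046 ± 0.60 and Acta1 at 0.39 ± 0.78. Their summed signal ran from 3043 to 4255 at P90 and from 2770 to 3550 at P30.

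The genes outside the set whose ratios lay nearest to the median profile of the 10 genes were found by the root mean square difference over the 4 arrays, among 13898 genes with a symbol. The 8 nearest were Tcf7l2 (0.11), Aspa (0.12), Cspg4 (0.14), Speg (0.15), Cobl (0.15), Slc35e3 (0.15), Rhpn2 (0.16) and Acsl1 (0.16), and 52 genes lay within 0.3. Of these 8, Cspg4 alone was on a gene list compared here. Tcf7l2, the nearest, had ratios of 0.26, 0.68, 0.14 and -0.93 on arrays a, b, e and k. Cspg4, a pericyte proteoglycan, had 0.0067, 0.92, 0.23 and -0.92. Speg, a kinase of striated and smooth muscle, had 0.076, 0.79, 0.015 and -0.76. Of the 10 genes themselves, Tagln lay nearest to their median profile (0.37) and Cnn1 furthest (1.47). With 4 points per gene, this likeness is a description.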

How the data were processed

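Per the file headers, the 4 deposited scanner files give linear intensity for every spot and channel, as medians of the spot and of its surrounding background. Their spot marks (other) for outliers, background and saturation come from the same deposited files. The log10 ratio that the authors deposited sets Cy5 over Cy3 after the scanner software's own processing, per the file headers, which name Feature Extraction 10.5.1.1, a protocol named for genomic hybridisation and an mm9 design; the submitters' processing notes name version 8.5.1.1. The deposited value table was found to hold log2 P90 over P30. It matched the deposited log ratio within 0.01 for 80.0% to 87.0% of probes (Pearson r 0.887 on array a, 0.882 on k, 0.993 on b and 0.999 on e). Its column medians over kept probes were -0.103, -0.0263, 0.0007 and -0.0347 on arrays a, b, e and k.

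Median signals were corrected with normexp (offset 50), normalized by loess within arrays (span 0.3, control spots weighted 0) with limma 3.58.1 (R 4.3.3), and turned to P90 over P30. Spots marked as outliers (127 to 156 gene spots per array) were left out and saturated spots kept. Probes well above background on at least 3 arrays in the P90 channel or in the P30 channel were kept (27055 of 41174). Probes were named through RefSeq accessions (25097 named, 16077 not), and the brightest kept probe stood for its gene. The log2 ratios were tested against 0 with lmFit and eBayes, Benjamini-Hochberg adjusted over 20825 genes at 0.05, and over all kept probes for single probes. Signals of single RNAs follow loess and Aquantile and include the offset. All 4 arrays lay on 1 slide with 1 scan day, so neither could be tested as a batch. Batches of RNA preparation or labelling were not tested. The scripts were tested on simulated data.

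The genes and lists were chosen with earlier results of these data known. Genes were named by rule: the 10 contractile genes, the 4 brightest of each muscle list and the 2 brightest of every other list, as none passed, and the 8 nearest profiles; others are marked, and a gene that the rule names is not reported here. A probe saturated in a channel on 3 or more arrays has no ratio and was left out of list medians, a choice made after seeing the data. Ratios of dim probes are understated. Those of saturated probes are unreliable in size and sign. Krt8 and Krt18, saturated in both channels on all arrays, both came out at 1.06 on array a and -0.15 on e after loess. Alternatives covered background, scaling, filters, probes, array weights, dye, direction and left-out arrays.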

Additional observations from a re-analysis of the deposited data

Results flagged for a closer look

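Ratios of single probes, signals of the contractile probes by age and list medians made 88 sets of 4 values, 1 per array. Of these, 3 had 1 array far from the other 3. Chance alone marks about 1 in 20 independent sets, and these sets are not independent of each other. The endothelial gene Plvap was at 1.54 on array b and between -1.52 and -1.0 on the others. Anpep, an aminopeptidase of pericytes that epithelium also expresses, was at -4.07 on array k and between -0.24 and 0.45 on the others. Rhoa, the GTPase that acts upstream of myosin phosphatase, was at 0.78 on array k and between 0.13 and 0.21 on the others, and its second probe was at 0.049 on array k. None of the 10 contractile genes was among the 3.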

How the results depend on the processing

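Each array holds 1 P90 and 1 P30 RNA, so each ratio is a within-pair value and the test of ratios against 0 is already paired. None of the contractile genes passed the limma test under any of the 19 alternatives; their smallest adjusted p ran from 0.112 with the sign of array b turned to 0.99991 without array a. The median of their means ran from -0.35 with median centring to 0.42 without array k, and with array k left out 9 of the 10 means lay above 0. Over all genes 0 passed with the processing used here (1641 at an unadjusted p below 0.05). With an offset of 16 it was 1, Cyp3a44. With the scanner software's processed signals, with the deposited log ratio and with the value table it was 2, Cyp3a44 and Cyp3a16, named after their values were seen. The count at an unadjusted p below 0.05 was 2268 with median centring, 4052 with array weights, 999 with a dye term, 4975 with array b turned, and between 681 and 4653 with an array left out. The strict filter tested 9 of the 10 genes, without Des.

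Several means near 0 changed sign. Acta2 stood at 0.013 with the offset of 16, 0.027 with processed signals, 0.104 with the deposited log ratio and with the value table, 0.13 with array weights, 0.33 with the dye term, 0.28 with array b turned and 0.13 by its dimmest probe. Median centring gave -0.17 for Tagln, -0.34 for Actg2, -0.046 for Cnn1 and -0.23 for Smtn, and array b turned gave -0.21 for Tagln and -0.20 for Cnn1. With each array left out in turn, the means ran from -0.34 to 0.18 for Acta2, -0.076 to 0.62 for Tagln, -0.74 to 0.40 for Myh11, -0.32 to 0.35 for Actg2, -0.28 to 1.37 for Cnn1, -1.0 to 0.67 for Myl9, -0.48 to 0.072 for Mylk and -0.54 to 0.44 for Lmod1. The upper ends for Tagln, Myh11, Cnn1, Myl9 and Lmod1 were those without array k. The cause was not tested. With the 10-spot probe of Acta2, or without Smtn, both chosen after seeing the data, the median of the genes was -0.031 and -0.0022.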
